A study of Homo sapiens with 12 samples.

Results

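The clustered histone genes are the replication-coupled genes for histones H1, H2A, H2B, H3 and H4 that sit in the HIST1, HIST2, HIST3 and HIST4 loci. They were taken as the protein-coding genes whose symbol starts with HIST1H to HIST4H and whose counts summed to at least 120 over the 12 libraries. That left 28 of 71 such genes, in a table of 58735 genes. The genes were thus selected on their summed count, so their overall level is a description. The set was also chosen with earlier results of these data known, so shares over its genes are descriptions too. The 28 comprised 2 H1, 6 H2A, 11 H2B, 3 H3 and 6 H4 genes. Of these, 21 lie on chromosome 6, 6 on chromosome 1 and 1 on chromosome 12.

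RNA was sequenced from HEK293T, a human embryonic kidney line that carries the viral large T antigen, to ask how much the reagents of a chemoproteomic experiment disturb the transcriptome. Each of 4 groups held 3 libraries. The first group received the solvent DMSO and the second received CEP, the clickable electrophilic purine AHL-Pu-1 that reacts with protein cysteines, at 25 µM for 1 h (the sample protocol writes the unit as mM). The third received 4SU (4-thiouridine, a photoactivatable nucleoside that cells build into new RNA) at 100 µM for 16 h, and the fourth, CEP+4SU, received both. The protocol on every label, controls included, has irradiation at 312 nm and mRNA purification on poly-T beads. The table lists human genes and so could not be used to check the large T antigen. Replicates are described as independent. The labels give no culture day for a library, and the study says only in general that experiments were repeated on different days, so p-values measure the spread between these libraries.

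Most clustered histone mRNAs are made in S phase, when new DNA has to be packed, and they end in a conserved stem-loop instead of a poly(A) tail. The stem-loop binding protein SLBP and the U7 snRNP direct the cut that forms this end, and the mRNAs are degraded when replication stops. Some of the genes also have a polyadenylated form that runs past the stem-loop to a downstream poly(A) signal. Poly-T beads keep RNA with a tail, so the reads counted here do not measure the stem-loop form in proportion to its amount in the cell.

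The stem-loop was found in an annotated transcript of 19 of the 28 genes (GENCODE 29 on GRCh38). It is a 6-base stem around a 4-base loop. The forms are shown because they mark where the usual mRNA would end. Capitals mark the 16 bases of the stem-loop, and 5 flanking bases on each side are in lower case.
HIST3H2A: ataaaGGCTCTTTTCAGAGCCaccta
HIST1H2AG: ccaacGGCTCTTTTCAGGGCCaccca
HIST1H2BD: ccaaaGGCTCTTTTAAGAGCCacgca
HIST1H4I: aaaaaGGCCCTTTTTAGGGCCcctaa
The form printed for HIST3H2A was shared by 10 genes of the H2A, H2B and H3 classes. The HIST1H4I form was shared with HIST2H4B, and another H4 form by HIST1H4E, HIST1H4H and HIST4H4. In 17 genes a transcript with the stem-loop ran on for more than 100 bases, by 116 to 1917 bases. In 12 of these 17 the extended transcript held a poly(A) signal in its last 60 bases. HIST1H2AG ran on for 1761 bases to an AATAAA, and HIST3H2A for 390 bases to an ATTAAA. Models of the other 9 genes, HIST1H2BK, HIST1H1C and HIST1H1E among them, held no stem-loop. For HIST1H2BK the counted model was 381 bases long.

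The level of the genes was uneven. HIST1H2BK alone gave 26.2% of all counts of the 28 genes, HIST3H2A 17.8%, HIST1H4I 12% and HIST1H1C 11.9%, and together these 4 gave 67.9%. The 28 genes held 97.64% of the counts of all 71. Those just inside the threshold were HIST1H2AH with 127, HIST1H4C with 142 and HIST1H2BH with 156 counts, and those just outside were HIST2H3D with 110, HIST1H3A with 108 and HIST1H2BL with 107. Of the 43 genes left out, 11 had 0 counts in every library. In any 1 library the 28 genes together took 0.018% to 0.0261% of the reads assigned to genes, or 3489 to 6427 counts.

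Per length, in FPKM (fragments per kilobase of gene model and library size, as deposited), HIST1H2BK was highest in DMSO at 174 ± 14.5 (SD, n = 3). HIST3H2A followed at 48.7 ± 4.42, HIST1H1C at 44.1 ± 1.46 and HIST1H4I at 21.8 ± 1.85. The SD ranges of HIST3H2A and HIST1H1C overlapped, and those of HIST1H2BK and HIST1H4I did not overlap with them. HIST1H2BD stood at 9.71 ± 1.33 and HIST1H1E, a linker histone, at 8.72 ± 4.22, which did not differ beyond their spread. HIST1H2BJ at 5.98 ± 0.321 and HIST1H2AC at 5.95 ± 0.32 were level. HIST2H2AC, an H2A gene, spread from a mean of 4.9 by an SD of 2.7. The highest H3 genes, which encode core histone H3, were HIST1H3H at 3.55 ± 0.332, HIST1H3B at 3.4 ± 2.11 and HIST1H3E at 2.09 ± 0.148. After HIST1H4I, the H4 genes stood at 1.54 ± 0.464 for HIST1H4C, 0.806 ± 0.364 for HIST2H4B and 0.722 ± 0.0307 for HIST1H4H. The lowest of the 28 was HIST1H2BE at 0.378 ± 0.0979. This order depends on the lengths of the annotated models, which run from 381 bases for HIST1H2BK to 5477 for HIST1H2BN. In CPM, without division by length, HIST1H2BK and HIST3H2A stood at 66.7 ± 5.72 and 43.9 ± 4.05 in DMSO.

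**Figure D1:**
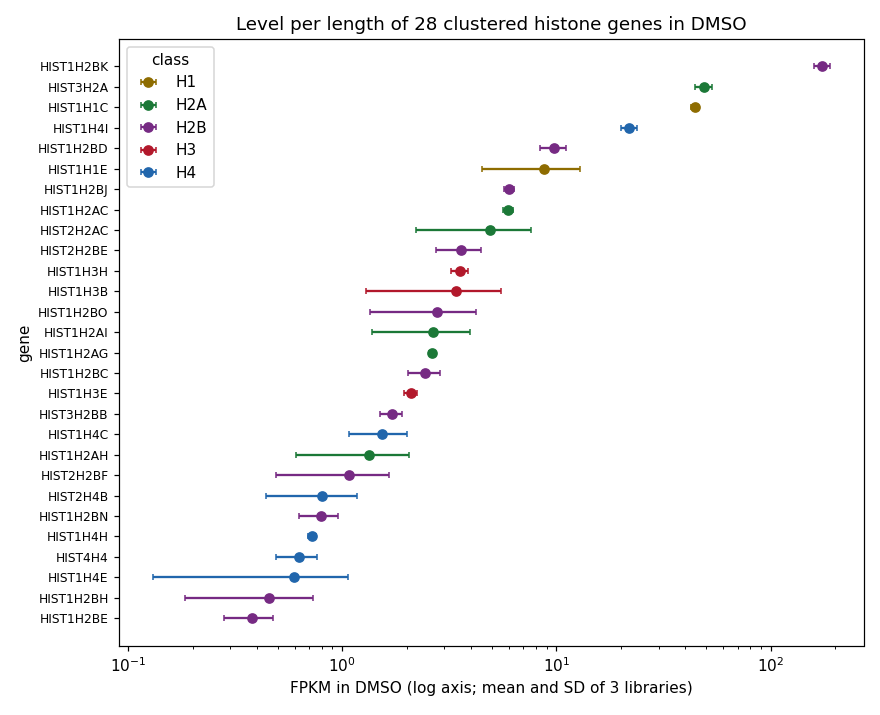
FPKM of each of the 28 clustered histone genes in DMSO (log axis), coloured by histone class; points are means and bars SDs of 3 libraries. HIST1H2BK stands highest at 174 and HIST1H2BE lowest at 0.378, an order that depends on the annotated model lengths.

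Summed over the 28 genes, the histone signal was lower in every treated library than in any DMSO library. On the scale of TMM-scaled CPM, which counts reads relative to library size, the DMSO libraries held 242.6, 243.5 and 266.2. The CEP libraries held 208.8, 205.3 and 229.6, the 4SU libraries 211.3, 207.0 and 200.9, and the CEP+4SU libraries 194.3, 177.9 and 193.9. The means were thus 14.4% lower with CEP, 17.7% lower with 4SU and 24.7% lower with both, against the same 3 DMSO libraries. No group overlapped DMSO, and the CEP and 4SU libraries overlapped each other. The sum was not tested, since its members were selected. A lower sum can come from fewer cells in S phase, from less histone RNA per cell or from a smaller share of it kept by the poly-T beads. The bulk libraries cannot tell these apart. The sum was also not recomputed with trends of fold change on GC content or gene length removed. With the GC trend removed, the CEP values of HIST1H2BK and HIST3H2A, the 2 genes with most counts, turned to 0.04. What such trends add to the lower sum was not tested.

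With both reagents the lower sum was not carried by the 4 most abundant genes alone. With CEP alone the 4 overlapped DMSO (140.8 to 159.6 against 156.5 to 174.3 CPM) and the other 24 did not. With 4SU alone the other 24 overlapped DMSO (63.46 to 75.49 against 70.98 to 91.88 CPM) and the 4 did not. The sum of the 4 was 167.5 ± 9.63 CPM in DMSO and 129.1 ± 2.23 with both reagents (SD, n = 3), and that of the other 24 genes was 83.3 ± 10.9 and 59.6 ± 7.15. By class, the DMSO and CEP+4SU means were 63.7 and 46.4 CPM for H2A, 105.8 and 77.6 for H2B, 11.5 and 7.99 for H3, 34.7 and 27.2 for H4, and 35.1 and 29.6 for H1. The H1 libraries overlapped between these groups, those of the other classes did not. Genes with a stem-loop in their model were 25.6% lower with both reagents and genes without one 23.7% lower. This split follows the annotated models, and a model that stops early, such as the 381 bases of HIST1H2BK, can miss a stem-loop. It does not show which mRNAs end in one.

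**Figure D2:**
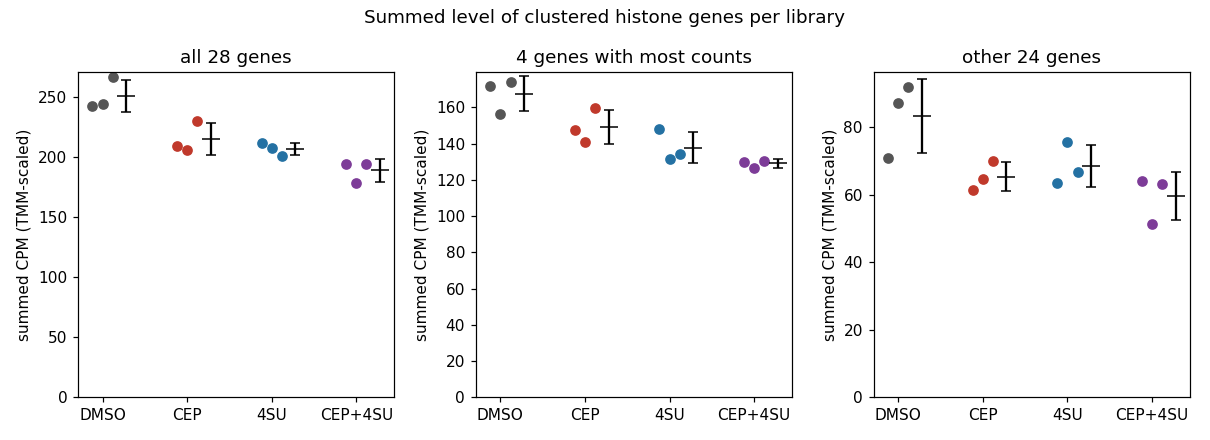
Summed CPM (TMM-scaled) in each library for all 28 genes, the 4 with most counts and the other 24; points are libraries, black bars the mean and SD of 3. For all 28 genes every treated library lies under the lowest DMSO library at 242.6.

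All 28 genes passed the filter on low counts and were tested with edgeR among 17729 genes, with Benjamini-Hochberg adjustment over all of them. With both reagents against DMSO, 27 of 28 had a lower fitted level, with a median log2 fold change of -0.41, where 50% of all tested genes were lower and their median was 0.00. Of the 28, 2 passed an adjusted p of 0.05, HIST1H2BK and HIST1H2AG, both lower, where the share over all genes was 1.64%. At an unadjusted p under 0.05 there were 11 of 28 (39.3%), all lower, against 21.4% of all tested genes in either direction. In 14 of 28 all 3 CEP+4SU libraries lay below all 3 DMSO libraries, and in 0 above. Over all tested genes those shares were 14.6% and 14.1%. The exception in direction was HIST2H2BF, an H2B gene with libraries from 1.71 to 5.41 CPM in DMSO and 3.3 to 3.86 with both, and a log2 fold change of 0.04 ± 0.40 (SE, adjusted p = 0.964).

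HIST1H2BK encodes a core histone H2B and lies at chr6:27146418-27146798 on the minus strand. It held 67.4, 60.6 and 72.0 CPM in DMSO. The CEP libraries stood at 60.1, 54.8 and 56.0 CPM, those of 4SU at 54.2, 53.3 and 52.5, and those of CEP+4SU at 48.2, 45.7 and 50.3. The 4SU and CEP+4SU libraries all lay below DMSO, and each CEP library below the lowest DMSO library. The log2 fold change with both was -0.47 ± 0.09 (SE, edgeR adjusted p = 0.0178). With CEP it was -0.23 ± 0.09 (adjusted p = 0.198) and with 4SU -0.32 ± 0.09 (adjusted p = 0.537), neither passing. The gene model holds 61.2% G and C, against a median of 48.5% over tested genes. With the trend of fold change on GC content removed, the value with both was -0.24 (adjusted p = 0.182) and the value with CEP turned to 0.04 (adjusted p = 0.908). The call was also lost without DMSO replicate 1 (adjusted p = 0.0962), DMSO replicate 3 (0.113), CEP+4SU replicate 2 (0.0586) or CEP+4SU replicate 3 (0.06).

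HIST1H2AG encodes a core histone H2A and lies at chr6:27133042-27135291 on the plus strand. It held 6.11, 5.71 and 6.05 CPM in DMSO. CEP gave 4.63, 4.53 and 4.6 CPM, 4SU gave 4.81, 3.0 and 3.54, and the 2 together gave 2.36, 3.30 and 3.66. None of the treated libraries reached the DMSO range. With both, the log2 fold change was -0.93 ± 0.21 (SE, edgeR adjusted p = 0.0367). It was -0.65 ± 0.21 with 4SU (adjusted p = 0.645) and -0.38 ± 0.21 with CEP (adjusted p = 0.334). With the GC trend removed the value with both was -0.96 (adjusted p = 0.0277). This call rested on 44 to 146 counts per library, and it was lost without any 1 of the 6 DMSO and CEP+4SU libraries (adjusted p = 0.0542 to 0.156) and without 4SU replicate 3 (0.0584).

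The promoters of these 2 genes are shown because both lay among the few that passed the test. They run from 250 bases before to 50 after the start of the gene in RefSeq on GRCh38, and 25 of the 28 genes had an entry. Windows of some neighbouring genes on opposite strands overlap, such as those of HIST1H2AG and HIST1H2BJ. Capitals mark the octamer ATTTGCAT, the letters CCAAT and the letters TATAAA, each on either strand.
HIST1H2BK, chr6:27146809-27147108, minus strand: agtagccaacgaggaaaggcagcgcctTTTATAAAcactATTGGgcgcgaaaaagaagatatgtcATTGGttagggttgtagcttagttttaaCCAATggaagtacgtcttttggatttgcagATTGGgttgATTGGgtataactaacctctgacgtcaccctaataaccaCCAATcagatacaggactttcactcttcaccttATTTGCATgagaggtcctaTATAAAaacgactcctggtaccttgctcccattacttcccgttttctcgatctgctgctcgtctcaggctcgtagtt
HIST1H2AG, chr6:27132793-27133092, plus strand: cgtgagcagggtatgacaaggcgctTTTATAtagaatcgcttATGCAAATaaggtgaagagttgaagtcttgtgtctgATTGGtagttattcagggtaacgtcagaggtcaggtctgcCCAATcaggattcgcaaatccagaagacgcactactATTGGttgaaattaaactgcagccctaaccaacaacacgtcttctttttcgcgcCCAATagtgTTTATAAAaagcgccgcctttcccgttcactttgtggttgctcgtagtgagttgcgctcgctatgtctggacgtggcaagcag
The octamer, a motif known from H2B promoters, was in 11 of 25 histone promoters, 3 of 5 H2A and 8 of 11 H2B, and in 0 of 2 H1, 0 of 2 H3 and 0 of 5 H4. It was in 1.8% of all 27305 promoters of this length. The 3 H2A windows with it, of HIST1H2AC, HIST1H2AG and HIST2H2AC, overlap windows of H2B genes that also hold it. These are HIST1H2BC, HIST1H2BJ and HIST2H2BE, so the same site can count in both classes. CCAAT was in 21 of 25 against 35.7% of all, and TATAAA in 15 of 25 against 12%. In both promoters shown, TATAAA and its reverse TTTATA overlap at 1 place or more, and the other letters do not overlap.

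**Figure D3:**
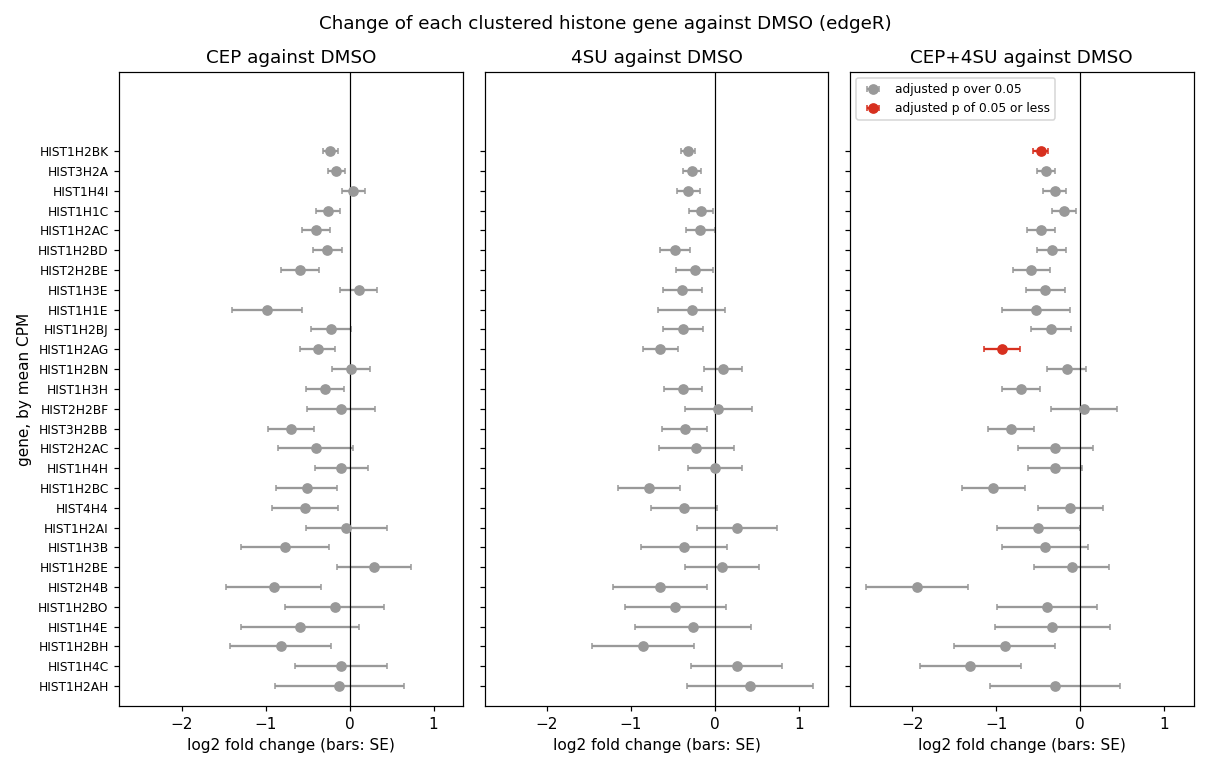
Log2 fold change of each of the 28 genes in CEP, 4SU and CEP+4SU against the same 3 DMSO libraries (edgeR, bars are SE), ordered by mean CPM with the highest on top. HIST1H2BK and HIST1H2AG pass an adjusted p of 0.05 with both reagents, and no gene does with either alone.

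HIST3H2A, an H2A gene at chr1:228456979-228457873 on the minus strand, held 45.8, 39.3 and 46.7 CPM in DMSO and 30.9, 33.2 and 35.2 with both. The 2 groups did not overlap, and its log2 fold change was -0.41 ± 0.11 (SE, edgeR adjusted p = 0.0534). Its model holds 57.7% G and C, and with the GC trend removed the value was -0.25 (adjusted p = 0.28). It passed in 8 of 25 alternatives, DESeq2 among them (adjusted p = 0.0112). HIST1H4I, an H4 gene, held 31.1, 27.4 and 26.8 CPM in the controls, 27.0, 30.6 and 30.2 in CEP, 27.9, 17.1 and 23.3 in 4SU, and 24.6, 21.7 and 22.7 in CEP+4SU. Only the group with both lay fully below DMSO, with a log2 fold change of -0.30 ± 0.14 (adjusted p = 0.206).

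The H1 genes encode linker histones, which bind DNA between nucleosomes. HIST1H1C held 27.4, 29.2 and 28.9 CPM in the DMSO libraries, 23.0, 17.6 and 30.5 in those of CEP, 24.9, 27.0 and 24.5 in those of 4SU, and 26.4, 26.0 and 22.5 in those of CEP+4SU, so that CEP overlapped DMSO. Its log2 fold change with CEP was -0.26 ± 0.14 (edgeR adjusted p = 0.327). HIST1H1E spread widest among the abundant members, with 2.99, 7.77 and 9.11 CPM in DMSO, 3.08, 1.65 and 5.17 in CEP, 2.91, 7.77 and 5.78 in 4SU, and 5.69, 2.73 and 5.42 in CEP+4SU. Its biological coefficient of variation, the spread between replicates beyond counting, was 0.343, against 0.0752 for HIST1H2BK and a median of 0.117 over all tested genes. MALAT1, a nuclear RNA with no ordinary poly(A) tail, stood at 41.3, 168 and 132 CPM in DMSO and 38.3, 107 and 129 with CEP. It stood at 64.7, 157 and 131 with 4SU, and at 124, 93.2 and 100 with both. In DMSO and 4SU both HIST1H1E and MALAT1 were lowest in replicate 1, but in CEP+4SU both were highest there. In CEP, MALAT1 was lowest in replicate 1 and HIST1H1E in replicate 2. What the libraries share was not tested.

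**Figure D4:**
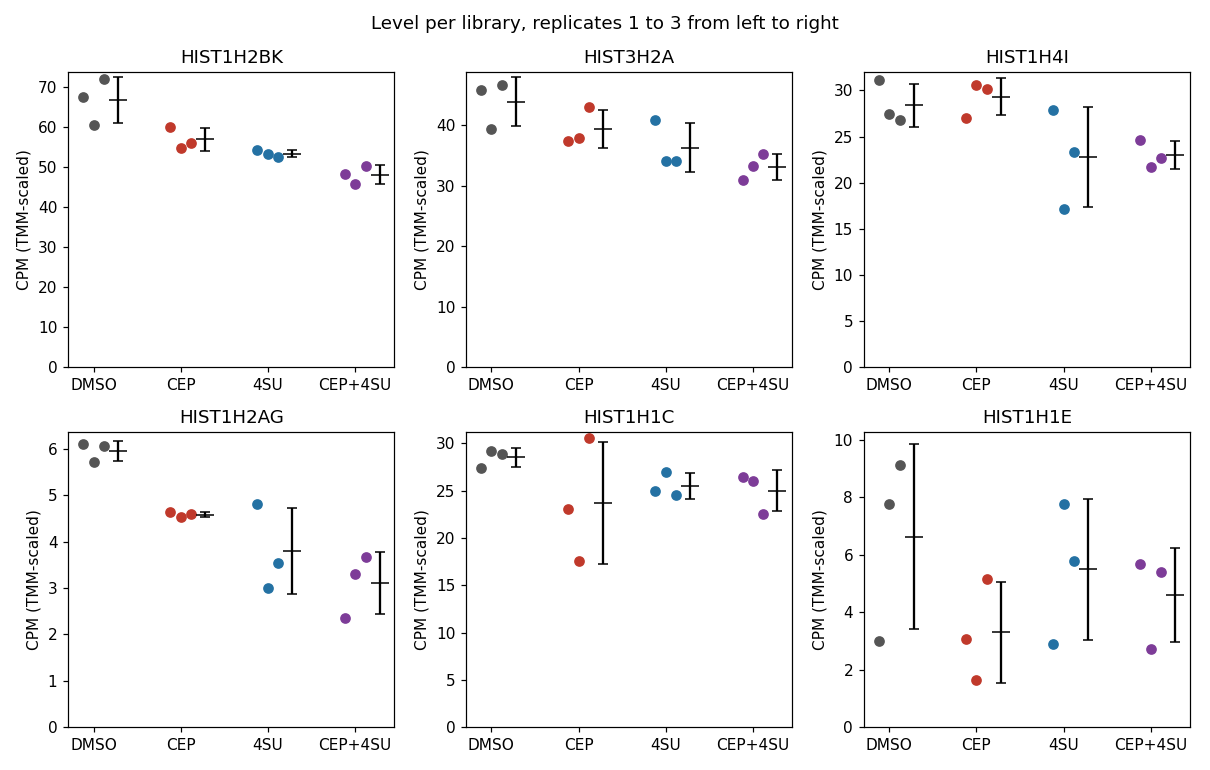
CPM per library of HIST1H2BK, HIST3H2A, HIST1H4I, HIST1H2AG, HIST1H1C and HIST1H1E in the 4 groups; points are replicates 1 to 3 from left to right, black bars the mean and SD. HIST1H2BK and HIST1H2AG in all CEP+4SU libraries lie below all DMSO libraries, while HIST1H1E overlaps.

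With CEP alone, 24 of 28 genes had a lower fitted level, with a median log2 fold change of -0.26. Over all tested genes 50.6% were lower and the median was 0.00. The models of the 28 genes are short, with a median of 1265 bases against 4341 over all tested genes. With the length trend removed the CEP median kept its direction but was much smaller, as given in the last section. In edgeR 0 passed (0.0564% of all genes did), with 5 at an unadjusted p under 0.05, all lower, and DESeq2 also called 0. That is 17.9% of the 28, against 18.5% of all tested genes in either direction. Of the 17729 tested genes, 1554 were under that p and lower. All 3 CEP libraries lay below DMSO in 4 genes and above it in 0, against 10.1% and 13.5% of all genes. HIST2H2BE, an H2B gene, held 5.80, 9.50 and 8.53 CPM in DMSO and 3.72, 6.47 and 5.64 with CEP, which overlapped, with a log2 fold change of -0.59 ± 0.22 (SE, adjusted p = 0.198). HIST3H2BB, another H2B gene, held 4.53, 3.54 and 4.10 against 2.92, 1.53 and 2.99, which did not overlap, with -0.70 ± 0.27 (adjusted p = 0.202). HIST1H2AC, an H2A gene, held 9.36, 10.2 and 10.4 against 6.06, 7.18 and 9.38, which overlapped by the highest CEP library, with -0.40 ± 0.17 (adjusted p = 0.225). For HIST1H1E the value was -0.99 ± 0.42 (adjusted p = 0.225), with overlapping libraries.

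With 4SU alone, 22 of 28 genes had a lower fitted level and the median log2 fold change was -0.30. Over all tested genes 51.8% were lower and the median was -0.01. In edgeR 0 passed, where 0.00564% of all genes did, and DESeq2 also called 0. At an unadjusted p under 0.05 there were 6 of 28 (21.4%), all lower, against 6.49% of all tested genes in either direction. In 8 genes all 3 4SU libraries lay below DMSO and in 0 above, against 10.3% and 7.59% of all genes. HIST1H2BD, an H2B gene, held 7.73, 7.92 and 9.90 CPM in DMSO and 5.08, 6.95 and 6.35 with 4SU, with a log2 fold change of -0.48 ± 0.18 (SE, adjusted p = 0.711). HIST3H2A with 4SU was at -0.27 ± 0.11 (adjusted p = 0.723) and HIST1H4I at -0.32 ± 0.14 (adjusted p = 0.744).

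Taking the 2 reagents as factors over all 12 libraries, the effect of 4SU averaged over CEP was lower in 24 of 28 genes, with a median log2 fold change of -0.20. Of all tested genes 50.7% were lower. HIST1H2BK passed with -0.28 ± 0.06 (SE, edgeR adjusted p = 0.0381), 1 gene of 28 where 0.558% of all genes passed. With the GC trend removed this value was -0.28 (adjusted p = 0.00874), but without 11 of the 12 libraries in turn, all but CEP replicate 2, the call was lost. HIST1H2AG was at -0.60 ± 0.15 (adjusted p = 0.0772), HIST3H2A at -0.26 ± 0.07 (0.122), HIST1H4I at -0.33 ± 0.10 (0.128) and HIST1H3E, an H3 gene, at -0.46 ± 0.16 (0.227). The effect of CEP averaged over 4SU was lower in 25 of 28, against 51.1% of all tested genes. Its median was -0.27, which was also smaller with the length trend removed. In edgeR 0 passed, where 0.276% of all genes did, and DESeq2 called 1, HIST1H2BK. At an unadjusted p under 0.05 there were 7 of 28, all lower, against 24.3% of all tested genes in either direction. Of the 17729 tested genes, 1918 were under that p and lower. In edgeR HIST1H2BK was at -0.19 ± 0.06 (adjusted p = 0.0898), HIST3H2BB at -0.58 ± 0.19 (0.0942), HIST2H2BE at -0.47 ± 0.16 (0.0972), HIST1H2AC at -0.35 ± 0.12 (0.101) and HIST2H4B at -1.10 ± 0.42 (0.127). The interaction of CEP and 4SU passed in 0 of 28 and in 0% of all genes, with 0 of 28 also at an unadjusted p under 0.05, and DESeq2 called 0.

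With both reagents, 3 further members among those with the smallest p had lower levels without passing. HIST2H4B held 2.37, 1.08 and 1.24 CPM in DMSO and 0.483, 0.574 and 0.150 with both, with a log2 fold change of -1.94 ± 0.61 (SE, edgeR adjusted p = 0.0896). Its lowest library had 3 counts, and it overlaps HIST2H3A on the opposite strand. HIST1H3H held 4.04, 4.33 and 4.89 CPM in DMSO and 2.74, 2.54 and 2.86 with both, with -0.71 ± 0.23 (adjusted p = 0.0976). HIST3H2BB with both was at -0.82 ± 0.27 (adjusted p = 0.101). None of these 3 overlapped between the groups. Copies of the histone genes are nearly alike in their coding part, and how reads that match several copies were counted is not given in the sources used here, so the split between copies is uncertain.

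Genes related to the histones were taken as lists chosen with earlier results known. The 12 histone variant genes outside the clusters make polyadenylated mRNA, and H2AFX among them also has a stem-loop form. They summed to 2861 ± 74.9 CPM in the controls, 2642 ± 230 in CEP, 2701 ± 7.10 in 4SU and 2610 ± 52.5 in CEP+4SU (SD, n = 3), so 8.75% lower with both. Of the 11 tested, 0 passed with both reagents, with 5 at an unadjusted p under 0.05, all lower, against 21.4% of all tested genes in either direction. The sums of the 4SU and CEP+4SU libraries lay below all DMSO libraries. H2AFX, chosen after its values were seen, held 329, 298 and 283 CPM in DMSO and 240, 164 and 236 with both, with a log2 fold change of -0.51 ± 0.14 (SE, edgeR adjusted p = 0.0713) and -0.16 with the GC trend removed. H1F0, the variant linker histone, passed for CEP averaged over 4SU with -0.28 ± 0.06 (SE, edgeR adjusted p = 0.04), a call kept in 10 of 24 alternatives and lost with the GC trend removed (-0.17). It was the 1 gene of 11 that passed there, where 0.276% of all tested genes did. The highest variants were H3F3B, H2AFZ and H3F3A, and H3F3A held 426, 378 and 399 CPM in DMSO and 346, 315 and 357 with both. In that gene the 2 groups did not overlap.

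A list of 24 genes held factors of histone 3′ end formation and, with NPAT, HINFP and POU2F1, activators of histone genes. They summed to 2347 ± 34.2 CPM in DMSO and 2336 ± 35.5 with both. CDK9, the kinase that releases paused RNA polymerase, was the 1 gene of 24 that passed, in CEP+4SU, where 1.64% of all tested genes did. Its log2 fold change was -0.37 ± 0.09 (edgeR adjusted p = 0.0484), a call kept in 9 of 25 alternatives and lost with the GC trend removed (-0.25). At an unadjusted p under 0.05 there were 6 of 24, 2 of them lower, against 21.4% of all tested genes. All 3 CEP+4SU libraries lay below DMSO in 3 of the 24 and above it in 4. SLBP, which binds the stem-loop, held 171, 170 and 165 CPM in DMSO and 159, 182 and 173 with both, which overlap. SRRT and CPSF1 were the other abundant genes of that list. CPSF1 held 200, 202 and 202 CPM in DMSO and 160, 132 and 176 with both, which did not overlap. Its log2 fold change was -0.37 ± 0.11 (SE, edgeR adjusted p = 0.0787). SRRT overlapped, with 313, 306 and 319 CPM against 301, 271 and 309. The list sum hides differing directions, since 10 of the 24 genes had a lower fitted level with both and 14 a higher one. The 10 genes of histone mRNA decay, led by UPF1, LSM4 and DCP2, summed to 1029 ± 20.6 and 1046 ± 8.84 CPM in these groups. Among the 22 chaperones, led by NAP1L1, SSRP1 and SUPT16H, the sums were 5429 ± 97.8 and 5484 ± 198. In the decay and chaperone lists 0 genes passed in edgeR with both, with 4 of 10 and 5 of 22 at an unadjusted p under 0.05, against 21.4% of all tested genes. Of these 4 and 5 genes, 1 and 3 were lower. The decay sum hides differing directions, since 7 of its 10 genes had a higher fitted level (median log2 fold change 0.11). All 3 CEP+4SU libraries lay above DMSO in 3 of the 10 and below it in 1, against 14.1% and 14.6% of all tested genes.

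Cell cycle genes were summed in the same way, since histone mRNA is tied to S phase. The 24 S phase genes, led by MCM4, MCM7 and MCM3, summed to 5246 ± 204 CPM in the controls, 5222 ± 107 in CEP, 5188 ± 16.4 in 4SU and 5187 ± 108 in CEP+4SU. The 15 G2/M genes, led by TOP2A, CENPF and MKI67, summed to 3338 ± 17.3, 3517 ± 143, 3343 ± 70.8 and 3480 ± 79.0. With both reagents 0 genes of either list passed in edgeR, and 5 of 24 and 1 of 15 had an unadjusted p under 0.05, against 21.4% of all tested genes. The G2/M sum lay above every DMSO library in all CEP and all CEP+4SU libraries.

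RNAs with a form that lacks an ordinary poly(A) tail were summed beside the histones, since poly-T beads should keep less of them. NEAT1, the most abundant of the list, also has a polyadenylated short form. Of the 27 genes, 13 had 0 counts in all 12 libraries and 8 passed the filter, and their sum was mostly NEAT1, MALAT1 and RN7SL2. The sum ran from 211.7 to 386.3 CPM in the controls, 211.8 to 307.8 in CEP, 297.2 to 394.8 in 4SU and 259.9 to 322.3 in CEP+4SU, so that every treated group overlapped DMSO. RN7SL2, a signal recognition particle RNA, held 66.1, 67.3 and 111 CPM in DMSO and 68.9, 7.24 and 69.8 with CEP. None of the 8 passed in edgeR in any DMSO comparison, with 1, 2 and 0 at an unadjusted p under 0.05 for CEP, 4SU and both. Of the 8, 7 had a lower fitted level with CEP, 2 with 4SU and 6 with both, against 50.6%, 51.8% and 50% of all tested genes. Their median log2 fold changes were -0.31, 0.10 and -0.11. The mean sum was 23.9% lower with CEP, where that of the clustered histones was 14.4% lower, and 12.4% lower with both. With 4SU it was higher, at 356.7 ± 52.2 against 325.4 ± 98.6 CPM (SD, n = 3). Whether differences in selection between libraries contributed to the histone values was not tested.

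**Figure D5:**
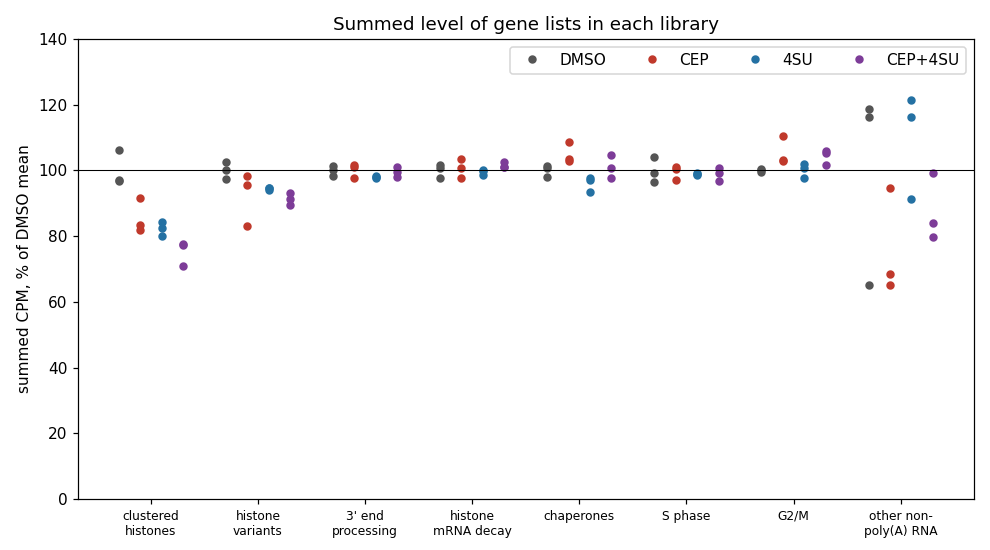
Summed CPM of the clustered histone genes and 7 other lists in each library, as a percentage of that list's DMSO mean; points are libraries, coloured by group, and the line marks 100. The clustered histone points of all treated libraries lie below their DMSO points, as do the histone variant points of 4SU and CEP+4SU. The G2/M points of CEP and CEP+4SU lie above theirs, and those of S phase overlap DMSO in every group.

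Libraries held 16569114 to 24644734 counts. CEP replicate 2 and CEP+4SU replicate 2 detected fewest genes, 22230 and 22627 against at least 24376 elsewhere. Without both, the summed histone CPM stood at log2 ratios to DMSO of -0.19 with CEP and -0.37 with both reagents, against -0.23 and -0.41 with all libraries.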

How the data were processed

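Gene counts (whole reads per gene) and FPKM were deposited by the authors, who per the submitters' processing notes used HISAT2 2.0.5 and featureCounts 1.5.0-p3 on GRCh38. Paired 150-base reads came from poly-T purified RNA. The strand setting and the treatment of reads that match several genes are not given in the sources used here. Such settings can move counts between histone copies. Counts were fitted in edgeR 4.0.16 (R 4.3.3) with TMM scaling, filterByExpr and the quasi-likelihood test over all 12 libraries, leaving 17729 genes. CPM are TMM-scaled. FPKM were used for levels per length. Alternatives were DESeq2 1.42.0, limma 3.58.1 on log2(FPKM + 1) and log2(FPKM + 0.1), other scalings and filters, GC and length trends removed by spline offsets, replicate blocks, and each library left out. The members and lists were chosen with earlier results of these data known. Named were members passing any test, the 3 highest per class by length-scaled count, the 5 smallest p per comparison (not for the interaction), those nearest the count threshold, and, of each list, genes passing and the 3 highest. For the S phase list, 1 gene is not reported here and was left out of its sum.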

Additional observations from a re-analysis of the deposited data

How the results depend on the processing

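The medians kept their direction under every alternative. The summed ratios were recomputed only with upper-quartile scaling, library size alone, short or long gene models, summed FPKM and libraries left out (leaving out CEP 2 and CEP+4SU 2 was chosen after seeing the data), and there kept their direction and moved by less than the replicate spread. The GC and length trends, the block and the other tools were not run on the sums. For the counts of members called below, the share of all tested genes passing under each alternative is not given. A higher count there is thus not a result particular to the histones. With both reagents the 2 calls became 4 with no low-count filter, 3 with the replicate block, with at least 10 counts in every library or with only the libraries compared, 1 with the GC trend removed (with or without the replicate block) and 1 without CEP 2 and CEP+4SU 2, 0 with either limma fit, and 0 to 3 leaving out 1 library, with medians of -0.30 with limma on log2(FPKM + 1), -0.29 without CEP 2 and CEP+4SU 2, and a range of -0.50 to -0.29 leaving out 1 library. For CEP alone 1 gene passed with no filter, and the median was -0.085 with the length trend removed. For CEP averaged over 4SU, DESeq2 called 1, no filter 2 and the replicate block 2, leaving out 1 library gave 0 to 1, and the median was -0.13 with the length trend removed and -0.15 without CEP 2 and CEP+4SU 2. For 4SU averaged over CEP, 2 passed in DESeq2, with no filter and with the replicate block, 4 with the GC trend removed, the length trend removed or the block and GC together, 0 with upper-quartile scaling, library size alone or limma, and 0 to 1 leaving out 1 library. The limma median on log2(FPKM + 1) was -0.10. Leaving out 1 library, the 4SU median ranged from -0.34 to -0.19, that of CEP from -0.35 to -0.20 and that of the interaction from 0.015 to 0.25.
Reversed were HIST1H2BK with CEP (0.041 with the GC trend removed, 0.039 with the block too) and with CEP averaged over 4SU (0.036 and 0.034), HIST3H2A with CEP (0.038 with the GC trend removed, 0.023 with the length trend removed, 0.035 with block and GC), and HIST2H2BF with both (-0.28 without DMSO replicate 1, -0.04 without CEP+4SU replicate 1, in a range of -0.28 to 0.52 leaving out 1 library). The cause was not tested. DESeq2 gave no adjusted p for HIST1H2AG with both, and its 2 calls there were HIST1H2BK and HIST3H2A. Libraries with the same replicate number deviated together little (r of -0.05 to 0.14 over 18 pairs), so the numbers were not taken as pairs. A mean CPM under 2 was found for 13 of the 28 genes.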
